A study of Caenorhabditis elegans with 4 samples.

Results

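The adjacent *C. elegans* microRNAs (miRNAs) miR-61-3p and miR-250-3p were compared with the miRNAs that resemble each of them in sequence, miR-44-3p and miR-45-3p for miR-61-3p and miR-2-3p for miR-250-3p. These 5 miRNAs were chosen by name for their genome position and family, and are 5 of the 66 mature miRNAs in the table. Earlier results of these data were known when they were chosen. miR-44-3p and miR-45-3p held identical values in every library and were counted once, which leaves 4 distinct profiles. Where both are meant, miR-44-3p stands below for the identical rows. Values come from sequencing of the small RNAs bound to the Argonaute ALG-1 or ALG-2, recovered by co-immunoprecipitation (co-IP) from whole animals at day 5 of adulthood. The ALG-1 animals carried FLAG::GFP::ALG-1 (PQ530) and the ALG-2 animals FLAG::RFP::ALG-2 (PQ582), each a genome-edited line with the tag at the endogenous gene. Both were grown on OP50 bacteria at 20°C without any further treatment, freed of eggs and larvae, and precipitated with the same FLAG antibody. Each Argonaute contributed 2 libraries, here called A and B. No input RNA or untagged strain was analysed here, so fewer cells that make a miRNA, less of it per cell, and a lower affinity for one Argonaute cannot be told apart. Each Argonaute also came with its own strain, tag and animal samples, and effects of these cannot be told apart from it either.

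miRNAs are cut from a hairpin precursor and loaded into an Argonaute protein, and the bases near the 5′ end of the loaded strand, the seed, select the target mRNAs. Hairpins that lie side by side can be transcribed as one primary transcript, in which case the neighbours share their transcription. miRNAs with a common seed can instead come from separate loci and differ in where they are made. miR-61 is known from vulval development, where LIN-12/Notch signaling activates its transcription and miR-61 represses *vav-1*. miR-44 and miR-45 have the same seed as miR-61. miR-250 is grouped with the miR-2 family, whose *Drosophila* members silence pro-apoptotic genes such as *reaper*.

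The positions of the hairpins separate neighbours from relatives. *mir-250* (chromosome V, 11769917-11770015, WBcel235) and *mir-61* (chromosome V, 11770060-11770156) are 44 bases apart, with no annotated gene spanning either. *mir-44* (chromosome II, 11890023-11890118) and *mir-45* (chromosome II, 11880944-11881039) lie 8983 bases from each other. *mir-43*, another relative of *mir-2*, is 15 bases from *mir-44*, so a hairpin of each of these families stands beside the other on chromosome II as well. On that chromosome *mir-42*, of the miR-35 family, lies 4 bases from *mir-43* and had no row either. *mir-2* (chromosome I, 9372768-9372865) lies within the span of *ppfr-1*, 7061 bases from *mir-71*. The relatives *mir-43*, *mir-247* and *mir-797* had no row in the table and were not analysed here.

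By mean ratio, the 2 neighbours were both far higher with ALG-2, whereas their relatives had ratios near 1. miR-61-3p was 7.31-fold and miR-250-3p 12.7-fold higher with ALG-2 by the mean of log2 values. The corresponding ALG-1 over ALG-2 ratios were 1.10 for both miR-44-3p and miR-2-3p. By limma, described below, neither neighbour passed an adjusted p of 0.05 (0.0702 for miR-61-3p and 0.0575 for miR-250-3p). The 95% intervals of both relatives still allowed a difference of more than 2-fold.

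miR-61-3p had 2757 and 1752 normalized reads (RPM, reads per 1000000 reads of the library) in ALG-1 libraries A and B, compared to 26024 and 9932 RPM in ALG-2 libraries A and B. Both ALG-2 values lay above both ALG-1 values, and library A was the higher of the replicates in each co-IP. The ALG-1 mean was 2254 ± 710 RPM and the ALG-2 mean 17978 ± 11379 RPM (SD, n = 2 each). Over all 66 miRNAs, the groups were separate and higher with ALG-2 for 25.8%. In rank among the 66 listed miRNAs, miR-61-3p moved from places 36 and 37 with ALG-1 to places 12 and 19 with ALG-2.

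miR-250-3p, its neighbour, had 85.0 and 41.1 RPM in the ALG-1 libraries and 1100 and 529.7 RPM in the ALG-2 libraries. The groups were again separate, and library A was again the higher replicate in both. The means were 63.0 ± 31.1 RPM and 815 ± 403 RPM, respectively (SD, n = 2 each). It was the last or next to last of all listed miRNAs with ALG-1, at places 65 and 66, but stood at places 47 and 54 with ALG-2. Even the lowest of these values rested on 264 reads, with a counting error of 6.15%, far below the difference between the co-IPs.

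miR-44-3p and miR-45-3p, the seed relatives of miR-61-3p, had 26916 and 24955 RPM in the ALG-1 libraries and 21053 and 26560 RPM in the ALG-2 libraries. The groups overlapped, with means of 25936 ± 1387 RPM and 23806 ± 3894 RPM (SD, n = 2 each). These miRNAs ranked between 10 and 16 in all 4 libraries. Their values cannot show whether one of the hairpins supplied more of the shared mature sequence than the other.

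miR-2-3p, the relative of miR-250-3p, had 496 and 275 RPM in the ALG-1 libraries and 412 and 276 RPM in the ALG-2 libraries. Here also the groups overlapped, at 385 ± 156 RPM and 344 ± 96.0 RPM (SD, n = 2 each). Library A was the higher replicate in both co-IPs, as for miR-61-3p and miR-250-3p.

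**Figure D1:**
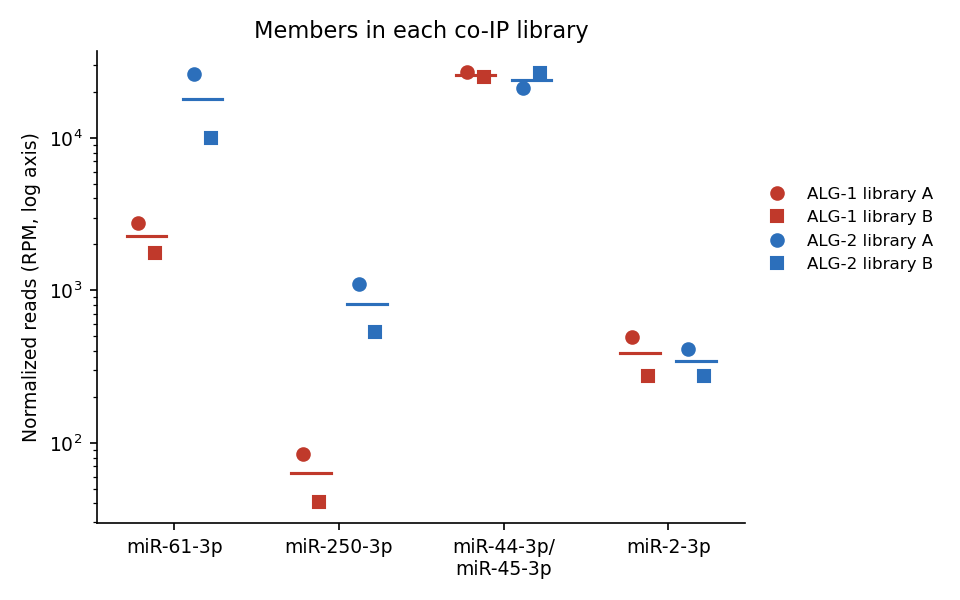
Normalized reads (RPM, log axis) of the 4 distinct miRNA profiles in each library, with ALG-1 libraries in red, ALG-2 libraries in blue, circles for library A, squares for library B and bars for the mean of each group. miR-61-3p and miR-250-3p are higher in both ALG-2 libraries than in either ALG-1 library, and the groups overlap for miR-44-3p/miR-45-3p and for miR-2-3p.

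The order of the levels differed between the co-IPs. Each read is a whole miRNA, so these levels need no correction for length. Other differences in how well each miRNA is recovered as reads were not corrected, so the order is one of reads. With ALG-1 the order was miR-44-3p, miR-61-3p, miR-2-3p and miR-250-3p, and no neighbours in this order overlapped. With ALG-2, miR-61-3p reached the level of miR-44-3p and the values of both overlapped, while miR-250-3p stood above miR-2-3p in both libraries.

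The criterion for enrichment in the study was a difference of more than 1.5-fold in independent replicates. The column names carry no replicate number, so each ALG-1 library was set against each ALG-2 library, and all 4 ratios had to exceed 1.5 in the same direction. miR-61-3p and miR-250-3p passed this criterion toward ALG-2, together with 9 other miRNAs (16.7% of the 66 passed in this direction). Their ALG-2 to ALG-1 ratios ranged from 3.60 to 14.9 for miR-61-3p and from 6.23 to 26.8 for miR-250-3p. The same ratios ranged from 0.782 to 1.06 for miR-44-3p and from 0.556 to 1.497 for miR-2-3p, which fall on both sides of 1.

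By limma, which weighs each difference against the spread between replicates, none of the 4 profiles passed an adjusted p-value of 0.05 over all 66 miRNAs. In this fit 1.52% of the miRNAs passed toward ALG-2 and 0% toward ALG-1, compared to 15.2% and 10.6% at an unadjusted p below 0.05. The log2 ratio (ALG-1 over ALG-2) of miR-250-3p was -3.67 ± 0.73 (SE, limma adjusted p = 0.0575). That of miR-61-3p was -2.87 ± 0.65 (SE, limma adjusted p = 0.0702). The adjusted p-values of both miRNAs fell below the threshold after median-of-ratios scaling (0.0242 and 0.0256, respectively) and after TMM scaling (0.0178 for both). After either scaling, 4 of the 66 miRNAs passed toward ALG-2 and 0 toward ALG-1. Both stayed above the threshold with the miR-35 family left out (0.149 for both). With replicates paired in column order, miR-250-3p passed (0.0233) and miR-61-3p did not (0.132). With the replicates paired the other way, limma pooled the variance over all miRNAs (66 degrees of freedom, 6.05 in the main fit). Both miRNAs had an adjusted p below 0.05 there although both SEs rose, so no call was taken from that fit. Without ALG-2 library A the log2 ratio of miR-61-3p was -2.18, and without ALG-2 library B it was -3.57, so its size depends on which ALG-2 library is used. For miR-44-3p the log2 ratio was 0.13, with a 95% interval from -0.93 to 1.20 (limma adjusted p = 0.879). For miR-2-3p it was also 0.13, with an interval from -1.42 to 1.68 (limma adjusted p = 0.896). These intervals still allow a difference of more than 2-fold for each, and the sign of these small ratios changed in some refits.

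Placed in order among the 65 distinct profiles, miR-250-3p had the ratio furthest toward ALG-2 and miR-61-3p the fourth. The paper kept for its enrichment analysis only miRNAs with at least 1000 reads across the libraries. miR-250-3p summed past 1000 RPM only through ALG-2 (1100 and 529.7 RPM, compared to 85.0 and 41.1 RPM with ALG-1). Its place and its ratio may thus not be independent of which miRNAs were listed. The same limit holds for its pass of the fold criterion, and for its comparisons with miR-61-3p and miR-2-3p and its share of reads below. miR-2-3p and miR-44-3p held places 32 and 33, in the middle of the order. The median of the table, 0.13, was the value of miR-44-3p itself, so that match is built in. The opposite end belonged to miR-60-3p, at 2.11 ± 0.55 (SE).

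**Figure D2:**
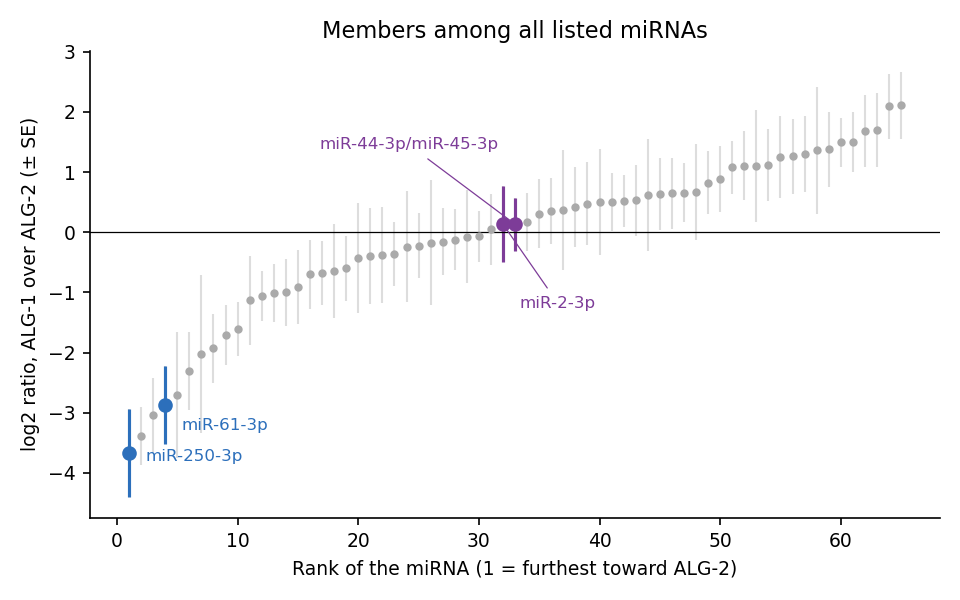
log2 ratio (ALG-1 over ALG-2, from limma) of the 65 distinct miRNA profiles in order, with bars for the SE. miR-250-3p at -3.67 and miR-61-3p at -2.87 lie at the ALG-2 end, and miR-44-3p/miR-45-3p and miR-2-3p lie at 0.13 in the middle.

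Whether the Argonaute ratio follows the shared locus or the related sequence was then asked with ratios between miRNAs within a library, which do not depend on how libraries are scaled. The neighbours kept a similar proportion in both co-IPs. miR-61-3p exceeded miR-250-3p by 32.4-fold and 42.7-fold in the ALG-1 libraries and by 23.7-fold and 18.8-fold in the ALG-2 libraries. The proportion was lower in both ALG-2 libraries, but the highest and the lowest value differed only by a factor of 2.28.

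The proportion between relatives differed by much more. miR-44-3p exceeded miR-61-3p by 9.76-fold and 14.2-fold with ALG-1, but the ratios were 0.809 and 2.67 with ALG-2. miR-2-3p exceeded miR-250-3p by 5.83-fold and 6.70-fold with ALG-1, and its ratio to miR-250-3p was only 0.374 and 0.521 with ALG-2. In both cases the ALG-1 and ALG-2 libraries were separate (as for 55.2% of all 2080 pairs of distinct miRNAs), and the highest and lowest ratios differed by factors of 17.6 and 17.9. The unrelated miR-44-3p and miR-2-3p, by comparison, had ratios of 54.3 and 90.7 with ALG-1 and 51.2 and 96.3 with ALG-2, which overlapped. Their highest and lowest ratios differed by a factor of 1.88, less than those of the neighbours. A steady proportion was thus not particular to the shared locus.

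**Figure D3:**
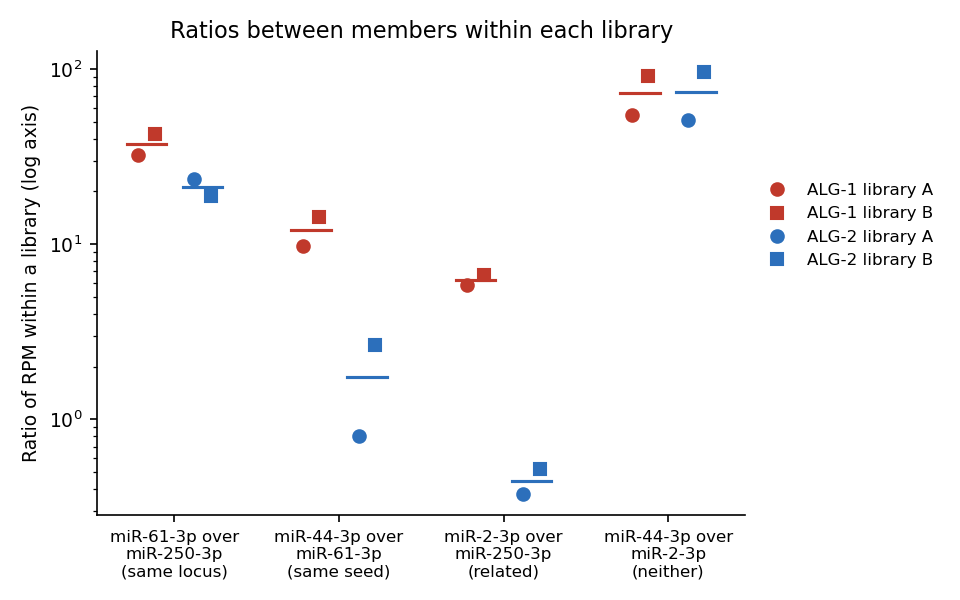
Ratio of RPM between members within each library (log axis), with colors and symbols for the libraries and bars for the group means. The ratio of the neighbours miR-61-3p and miR-250-3p stays between 18.8 and 42.7, a factor of 2.28, whereas miR-44-3p over miR-61-3p and miR-2-3p over miR-250-3p span factors of 17.6 and 17.9. All 3 ratios are lower in both ALG-2 libraries than in either ALG-1 library. The ratio of miR-44-3p over miR-2-3p, which share neither locus nor family, spans a factor of 1.88 and its groups overlap.

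The difference between the log2 ratios of miR-250-3p and miR-61-3p was -0.80, with a 95% interval from -2.77 to 1.18 by limma over all pairs of distinct miRNAs. A difference between the neighbours was thus not detected (limma adjusted p = 0.613 over 2080 pairs), although the interval does not show that they were equal. The 2080 pairs share miRNAs and thus replicate errors, which neither the intervals nor the adjusted p-values take into account. For miR-44-3p against miR-61-3p the difference was 3.003, with an interval from 0.98 to 5.03 (limma adjusted p = 0.0910). For miR-2-3p against miR-250-3p it was 3.80, with an interval from 2.03 to 5.57 (limma adjusted p = 0.0582). This second difference may depend on the listing of miR-250-3p, which passed 1000 RPM only through ALG-2. Both intervals lie above 0, but neither difference passed after adjustment, and 0% of all pairs did (24.9% had an unadjusted limma p below 0.05). Fits relative to a single reference miRNA gave smaller adjusted p-values, 0.00607 for miR-44-3p against miR-61-3p and 0.00183 for miR-2-3p against miR-250-3p by limma. However, 80% and 84.6% of all miRNAs passed in these fits, compared to 0% relative to miR-44-3p (21.5% at an unadjusted limma p below 0.05). In the fits relative to miR-61-3p and miR-250-3p limma pooled the variance over all miRNAs (130 degrees of freedom, 3.33 relative to miR-44-3p). No call was taken from these fits, for that reason and since the share that passed differed this much with the reference. Leaving out ALG-1 library A or B ended both (limma adjusted p of 0.220 and 0.316 for the first difference, 0.0561 and 0.0623 for the second). The first difference was 2.14 without ALG-2 library A and 3.87 without ALG-2 library B. An exact two-sided permutation test of 2 libraries against 2 cannot go below 0.333, and the ratios of these 3 pairs gave that value.

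The same values can be read as the share that each neighbour takes of its family. miR-61-3p made up 9.29% and 6.56% of the reads it shares with miR-44-3p in the ALG-1 libraries, but 55.3% and 27.2% in the ALG-2 libraries. If the identical rows of miR-44-3p and miR-45-3p are both counted, its share was 4.87% and 3.39% with ALG-1 and 38.2% and 15.8% with ALG-2. miR-250-3p made up 14.6% and 13.0% of the reads it shares with miR-2-3p with ALG-1, and 72.8% and 65.8% with ALG-2. Wilson 95% intervals were at most 1.46 percentage points to either side of these shares, and cover counting error only. miR-250-3p thus had more reads than miR-2-3p in both ALG-2 libraries. miR-61-3p had more reads than miR-44-3p, counted once, in ALG-2 library A only.

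**Figure D4:**
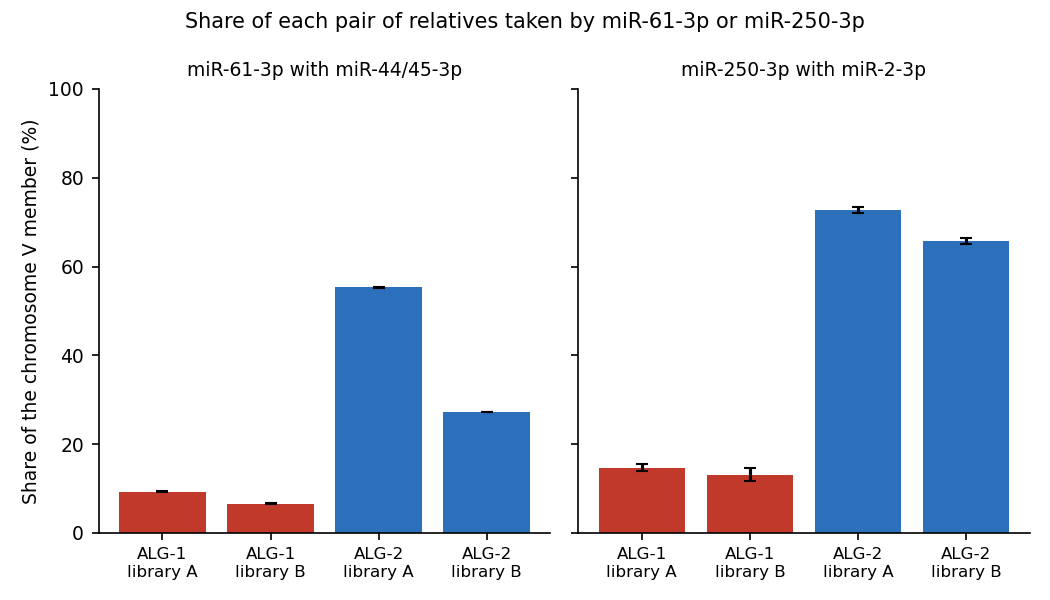
Share (%) of miR-61-3p in the reads of miR-61-3p plus miR-44-3p counted once (left), and of miR-250-3p in the reads of miR-250-3p plus miR-2-3p (right), per library, with Wilson 95% intervals. Both shares are higher in the 2 ALG-2 libraries, from 27.2% to 55.3% on the left and from 65.8% to 72.8% on the right.

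Summed over relatives, the libraries differed less. The sum of miR-61-3p and miR-44-3p, counted once, was 28190 ± 2097 RPM in the ALG-1 libraries and 41784 ± 7485 RPM in the ALG-2 libraries (SD, n = 2 each). miR-250-3p and miR-2-3p added up to 448 ± 187 RPM and 1159 ± 499 RPM, respectively. The 2 neighbours together reached 2318 ± 742 RPM in the former and 18793 ± 11783 RPM in the latter. The sum over the seed that miR-61-3p and miR-44-3p share was thus less uneven than that over the locus, and most of it was miR-44-3p except in ALG-2 library A.

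Within each co-IP, replicates of the neighbours deviated in the same direction, as did those of miR-2-3p. ALG-1 library A exceeded library B by 1.57-fold for miR-61-3p and 2.07-fold for miR-250-3p, and ALG-2 library A exceeded library B by 2.62-fold and 2.08-fold, respectively. For miR-2-3p the corresponding factors were 1.80 and 1.49, but for miR-44-3p they were 1.08 and 0.793. The median absolute log2 difference between replicates over all listed miRNAs was 0.34 for ALG-1 and 0.90 for ALG-2. miR-61-3p was above this median in both co-IPs (0.65 and 1.39), as was miR-250-3p (1.03 and 1.05).

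Likeness of the whole profile over the 4 libraries was measured as the root mean square difference between log2 values, each centered on its own mean. For miR-61-3p, miR-250-3p was the second closest of 65 miRNAs (0.44), between miR-40-3p (0.33) and miR-37-3p (0.45). For miR-250-3p, miR-61-3p was also the second closest, between miR-37-3p (0.42) and miR-40-3p (0.77). The relatives stood much further away, with miR-44-3p at place 31 from miR-61-3p (1.63) and miR-2-3p at place 28 from miR-250-3p (1.91). These distances rest on 4 libraries and are a description only.

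miR-37-3p and miR-40-3p belong to the miR-35 family, which is abundant in eggs and embryos, and this family moved with the co-IP as well. Its 6 listed members of 8 summed to 4.84% and 4.19% of ALG-1 libraries A and B, but to 26.5% and 14.1% of ALG-2 libraries A and B. For miR-37-3p the ALG-1 libraries held 3245 and 3137 RPM and the ALG-2 libraries 40137 and 27679 RPM. For miR-40-3p they held 13675 and 11533 RPM, compared to 110967 and 34682 RPM. Any part of eggs or embryos in the ALG-2 enrichment of miR-61-3p and miR-250-3p was not tested. With all miR-35 family reads removed before rescaling, the log2 ratios were -3.14 for miR-61-3p and -3.93 for miR-250-3p (limma adjusted p = 0.149 for both). This removal moves every remaining log2 ratio by nearly the same amount, so it does not bear on RNA from eggs or embryos.

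Across the table, 35 pairs of listed miRNAs had hairpins within 10 kb of each other, including miR-61-3p with miR-250-3p. The absolute difference of their log2 ratios had a median of 0.62, compared to 1.18 over all 1950 pairs with known positions, and was 0.80 for miR-61-3p and miR-250-3p. Many of the 35 pairs are also relatives in sequence and share members, so no test was made. The nearest listed hairpin to *mir-2*, *mir-71*, gave miR-71-5p with 27329 and 19692 RPM in the ALG-1 libraries and 18332 and 11844 RPM in the ALG-2 libraries. The log2 ratio of miR-71-5p, 0.65 ± 0.49 (SE), did not pass (limma adjusted p = 0.492) and was 0.52 from that of miR-2-3p.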

How the data were processed

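Libraries of co-IP small RNAs were made with the TruSeq small RNA kit. The authors removed adapters (cutadapt, version not given in the sources used here), mapped reads to the WS261 genome with miRDeep2, and counted mature miRNAs of miRBase release 21. The deposited values are RPM, which the authors computed as reads per 1000000 reads of each library. The paper left miRNAs with fewer than 1000 reads across the libraries out of its enrichment analysis. No listed miRNA summed to less than 1003 RPM. All 66 values per column were whole multiples of 1 read (tolerance 0.0001 reads), which gave library depths of 6428905 to 25703472 reads. These reads were used for precision and TMM weights, and no count model was fitted.

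Libraries were grouped by titles, and columns by the Argonaute in their names. Replicates were called A and B in column order, as the columns carry no replicate number. They were 2 independent RNA samples per strain. The members and lists were chosen with earlier results of these data known. limma 3.58.1 in R 4.3.3 was fitted to log2(RPM + 1) of all miRNAs with a variance trend and Benjamini-Hochberg adjustment. Differences between members were planned as limma fits relative to a reference miRNA. Tested on simulated data, these fits at times made many false calls together. A fit over all pairs of distinct miRNAs was therefore added after seeing the data. The miRNAs named were the members, the 3 closest profiles to each neighbour, listed hairpins within 10 kb, and the extremes of the table. Positions are from RefSeq (WBcel235), which matched 63 of the 66 miRNAs. Mature sequences were not used here.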

Additional observations from a re-analysis of the deposited data

How the results depend on the processing

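The columns carry no replicate number, so both possible pairings were fitted. Deviations of the libraries correlated at -0.21 for pairs in column order and 0.21 for crossed pairs. With the block in column order, the log2 ratio of miR-250-3p (-3.67) passed (limma adjusted p = 0.0233). That of miR-61-3p (-2.87) did not (0.132). Crossed pairs gave 0.0154 and 0.00756, but the variance was fully pooled there, so no call was taken. miR-250-3p (-3.67) also passed without the variance trend (0.0347). Both passed after scaling by median of ratios (-2.92 for miR-61-3p and -3.72 for miR-250-3p) and by TMM (-2.98 and -3.78). Over all settings the limma adjusted p ranged from 0.00756 to 0.736 for miR-61-3p and from 0.0154 to 0.736 for miR-250-3p. Without the miR-35 family, the log2 ratio turned to -0.13 for both miR-44-3p and miR-2-3p. Leaving out each library in turn gave -3.57 to -2.18 for miR-61-3p, -4.19 to -3.14 for miR-250-3p, -0.035 (without ALG-2 library A) to 0.30 for miR-44-3p and -0.29 (without ALG-1 library A) to 0.56 for miR-2-3p (-0.16 without ALG-2 library B). The difference of miR-250-3p from miR-61-3p then ranged from -0.99 to -0.61, that of miR-44-3p from miR-61-3p from 2.14 to 3.87, and that of miR-2-3p from miR-250-3p from 3.56 to 4.04. A library left alone in its group was assumed to vary like the others. With the variance shared over all pairs, the differences of 3.003 and 3.80 no longer passed. That fit changed both the variance estimate and the number of comparisons (2080 in place of 65). The cause of the other changes was not tested. Both neighbours and neither relative passed the fold criterion at 2-fold, after either scaling and without the miR-35 family. Its other settings reuse the same 4 ratios, so the neighbours could not fail there. Neither relative passed. The limma calls over the table, 0 with ALG-1 and 1 with ALG-2, became at most 2 and 5 (crossed pairs). They were 4 with ALG-2 after either scaling, 3 without the trend and 0 without the miR-35 family. A minimum of 4000 RPM summed over the libraries removes miR-250-3p and miR-2-3p. A setting without any minimum could not be tried, as every listed miRNA summed to at least 1003 RPM. The planned edgeR test was not run, as the deposited values are RPM with too few low values to check recovered reads.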
